A study of Homo sapiens with 10 samples.

Results

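The core pluripotency factors followed here are 9 genes, taken as the rows of the count table whose symbol is POU5F1, SOX2, NANOG, DPPA4, LIN28A, PRDM14, SALL4, USP44 or VRTN. They are 9 of the 60651 genes in that table, and all 9 were among the 22495 genes with enough reads to be tested. Messenger RNA was sequenced in 10 libraries from 2 human cell lines, in 5 groups of 2 that the series describes as biological replicates. The t-hESC line, a transformed line of human embryonic stem cells whose cell type is given as transformed pluripotent stem cells, was treated with DMSO (the solvent control), with the compound labelled BIX at 1 µM or with the compound labelled VXN at 10 µM. HT29, a colorectal cancer line, was treated with DMSO or with VXN at 10 µM. The treatment field gives 48 hours of DMSO for all 10 libraries, so the compounds and doses were read from the sample titles. The study's title names the deposition of H3K9me2, the dimethyl mark on lysine 9 of histone H3, as what the compounds were meant to modulate. Each cell type is represented by 1 line, and each compound by 1 dose.

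Pluripotency is the capacity of a cell to form every tissue of the embryo, and it is held by a small network of transcription factors that bind their own and each other's genes. POU5F1 (also called OCT4) and SOX2 bind DNA side by side at many of these genes, and NANOG joins them there. The other factors act around that centre: SALL4 and PRDM14 are DNA-binding zinc finger proteins, DPPA4 is a chromatin-bound protein that works with its partner DPPA2, LIN28A is an RNA-binding protein that blocks maturation of the let-7 microRNAs, and USP44 removes ubiquitin from other proteins, among them histone H2B. VRTN is a DNA-binding protein best known for its effect on the number of vertebrae.

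Promoter sequences of NANOG and SOX2 are shown because these 2 factors moved in opposite directions under VXN and both are known targets of the POU5F1 and SOX2 pair. Each runs 5′ to 3′ over the 250 bases before the RefSeq start of the gene on GRCh38.p14, on the plus strand, and spans chr12:7789152-7789401 for NANOG and chr3:181711675-181711924 for SOX2. Capitals mark matches, on either strand, to TTTGCAT, a core of the site that POU factors bind, and to ACAATG, a core of the site that SOX factors bind.
NANOG promoter: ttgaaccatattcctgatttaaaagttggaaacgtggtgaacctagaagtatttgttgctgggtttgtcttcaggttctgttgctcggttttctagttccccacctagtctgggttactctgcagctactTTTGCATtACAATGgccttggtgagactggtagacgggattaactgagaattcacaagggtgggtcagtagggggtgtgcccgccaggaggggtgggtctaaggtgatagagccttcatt
SOX2 promoter: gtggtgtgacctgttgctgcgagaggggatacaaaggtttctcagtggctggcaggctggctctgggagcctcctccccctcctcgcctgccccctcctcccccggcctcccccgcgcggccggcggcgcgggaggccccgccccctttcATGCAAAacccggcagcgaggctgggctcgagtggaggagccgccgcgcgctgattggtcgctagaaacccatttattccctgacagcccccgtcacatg
In the NANOG promoter TTTGCAT began 120 bases before the start and ACAATG began 112 bases before it, 1 base apart from the first motif. The 14 letters from the first motif to the end of the second, TTTGCATTACAATG, were found in 1 of 35116 RefSeq promoters of the same length. That 1 is the NANOG promoter, from which the letters were taken. The SOX2 promoter held TTTGCAT on the minus strand, printed here as ATGCAAA, beginning 100 bases before the start, and no ACAATG. Alone, TTTGCAT was found in 3.941% and ACAATG in 9.286% of the 35116 promoters. Of the 9 factors, 4 had an entry in the promoter table, and those of DPPA4 and VRTN held neither motif in this window. A match describes letters and is not a measured binding site.

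Each library held between 13137026 and 24492838 reads counted to genes. Levels are given in CPM, reads of a gene scaled to a common library size, computed here from the counts with library sizes scaled by edgeR's TMM factors, and they are compared within a gene, never between genes, because they are not divided by length. Where a gene has 0 reads, its level may still be as high as 3 reads give, 0.124 to 0.220 CPM by library, for counting error only. In t-hESC the summed level of 8 pluripotent-cell markers was 4963 to 5624 CPM, against 11.9 to 16.1 CPM in HT29. These markers were DNMT3B, TDGF1 and L1TD1 together with POU5F1, SOX2, NANOG, LIN28A and DPPA4, which are themselves factors followed here. For t-hESC the sum is therefore not a check independent of the factors. In HT29 the summed level of 12 markers of colorectal epithelium was 1763 to 2035 CPM, against 115 to 128 CPM in t-hESC, so both lines carried the markers of their labels. These are bulk libraries, in which fewer cells that express a gene and less RNA per cell cannot be told apart.

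In t-hESC under BIX, 4 of the 9 factors rose (SOX2, NANOG, DPPA4 and SALL4), 2 fell (LIN28A and VRTN) and 3 did not pass the test (POU5F1, PRDM14 and USP44). The called changes were small: at the extremes LIN28A fell by 15.3% and NANOG rose by 16.5%. A gene is called when the adjusted p of edgeR's quasi-likelihood test, adjusted over all 22495 genes, is under 0.05. By this rule 23.1% of all tested genes were called under BIX, 10.9% higher and 12.2% lower. Among the 6135 genes at or above 34.5 CPM on average in t-hESC, the level of the lowest of the 9, the share called was 51%, with 18.3% higher and 32.7% lower, so 6 of 9 was near the share of genes of like abundance. The median log2 fold change of the 9 factors was 0.0029, and that of all genes was 0.0015.

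Under VXN in t-hESC, 5 factors fell (POU5F1, SOX2, LIN28A, PRDM14 and VRTN), 1 rose (NANOG), and DPPA4, SALL4 and USP44 did not pass. Here 29% of all tested genes were called, 14.5% higher and 14.6% lower. Of the 6135 genes of like abundance 55.3% were called, 19.8% higher and 35.5% lower, so the count of 6 was again near that of other abundant genes. At the extremes PRDM14 fell by 29.4% and NANOG rose by 33.0%. The median log2 fold change was -0.13 over the 9 factors and 0.0036 over all genes. Both compounds were compared with the same 2 DMSO libraries, so their results are not independent of each other.

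**Figure D1:**
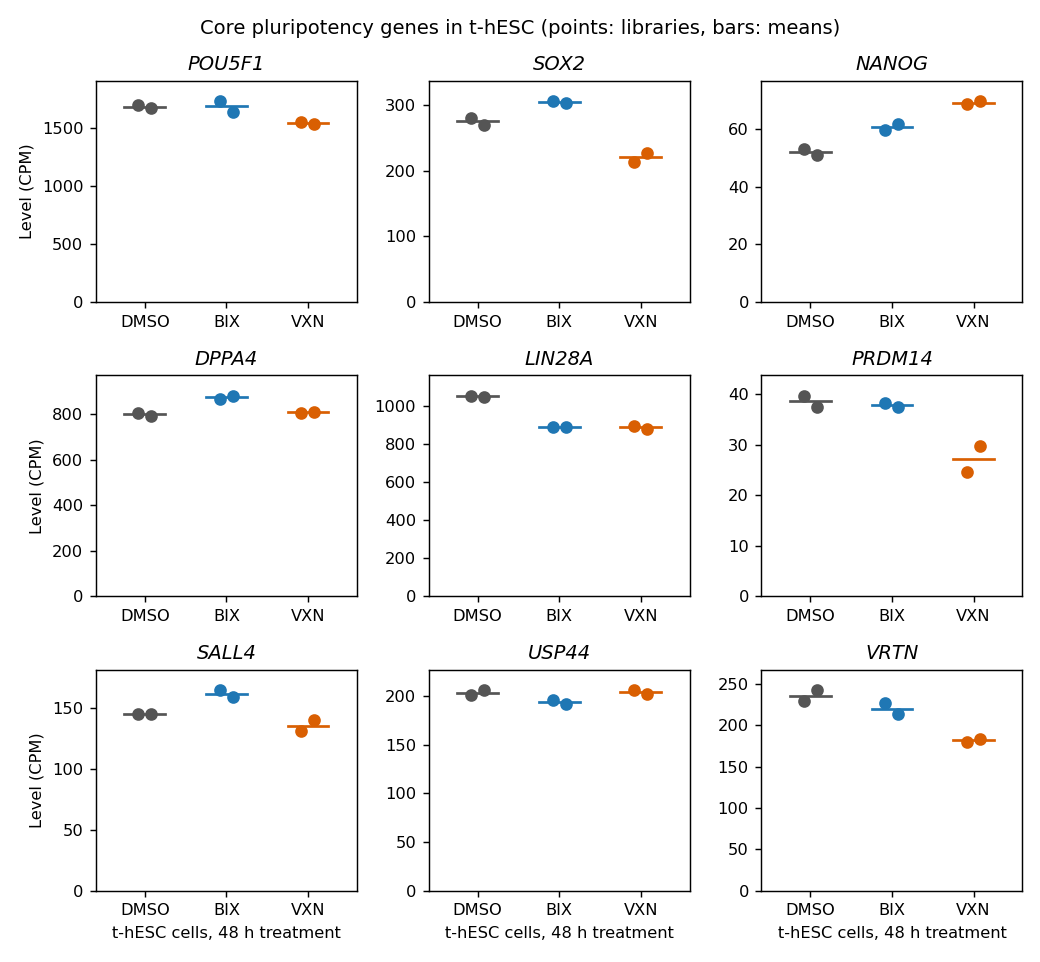
Level of each of the 9 factors (vertical axes, CPM, from 0) in the 6 t-hESC libraries, grouped by treatment along the horizontal axes, with points for libraries and bars for the mean of 2. NANOG is lowest under DMSO and highest under VXN at 68.8 and 69.8 CPM, whereas SOX2, PRDM14 and VRTN are lowest under VXN.

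POU5F1, the POU-domain factor at the head of the network (chromosome 6, 31164337 to 31170682 on GRCh38.p14), stood at 1702 and 1673 CPM under DMSO, 1736 and 1646 CPM under BIX, and 1554 and 1534 CPM under VXN. The BIX libraries lay on both sides of the DMSO pair, and both VXN libraries lay below all 4 others. The mean was 1688 ± 20.6 CPM (SD, n = 2) under DMSO and 1691 ± 63.8 CPM under BIX, a log2 fold change of 0.0029 ± 0.029 (SE) with a 95% interval of -0.056 to 0.062 (edgeR adjusted p = 0.977). Under VXN it fell by 0.13 ± 0.029 on the log2 scale, and so fell by 8.51%, to 1544 ± 14.5 CPM (edgeR adjusted p = 0.000371). The authors' deposited table does not call this fall (adjusted p = 0.952).

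SOX2, the partner of POU5F1 (chromosome 3, 181711925 to 181714436), stood at 282 and 269.7 CPM under DMSO, 307 and 304 CPM under BIX, and 214 and 228 CPM under VXN. The 3 groups did not overlap: both BIX libraries lay above and both VXN libraries below the DMSO pair. The rise under BIX was 0.15 ± 0.035 on the log2 scale (edgeR adjusted p = 0.000697), and under VXN it fell by 19.9%, a log2 fold change of -0.32 ± 0.035 (edgeR adjusted p = 2.75e-11). SOX2 lies inside a long non-coding gene, SOX2-OT, on reads that were not separated by strand. That gene was at 3.94 ± 0.716 CPM in t-hESC under DMSO and was not called under BIX or VXN (edgeR adjusted p = 0.899 and 0.742).

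NANOG, the homeodomain factor (chromosome 12, 7789402 to 7799146), was the factor that rose under both compounds. Its level was 53.3 and 51.1 CPM under DMSO, 59.7 and 61.9 CPM under BIX, and 68.8 and 69.8 CPM under VXN, with no overlap between the 3 groups. The log2 fold change was 0.22 ± 0.057 under BIX (edgeR adjusted p = 0.00200) and 0.41 ± 0.054 under VXN (edgeR adjusted p = 5.21e-09), a 1.33-fold rise. NANOG has 11 copies among the rows, taken by their names and not by sequence, and 7 of them held reads in some library. Reads that fit both NANOG and a copy could have been counted to either. The largest, NANOGP8 on chromosome 15, held 23.7 to 31.5% as many reads as NANOG in the t-hESC libraries. NANOGP8 also rose under VXN, by 0.39 ± 0.094 on the log2 scale (edgeR adjusted p = 8.55e-04), and under BIX its log2 fold change was 0.03 ± 0.10 (edgeR adjusted p = 0.906). NANOGP1, with fewer reads, rose under BIX by 0.77 ± 0.22 (edgeR adjusted p = 0.00464). Its change under VXN was 0.12 ± 0.23 (edgeR adjusted p = 0.768). With all copies summed into NANOG the changes were 0.20 under BIX and 0.39 under VXN (edgeR adjusted p = 0.00261 and 2.94e-09).

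LIN28A, the RNA-binding factor (chromosome 1, 26410817 to 26429728), fell under each compound. It stood at 1056 and 1048 CPM under DMSO, at 891 CPM in both BIX libraries, and at 896 and 882 CPM under VXN. All 4 treated libraries lay below both controls, and the BIX and VXN libraries overlapped. It fell by 15.3% under BIX, a log2 fold change of -0.24 ± 0.029, and fell by 15.5% under VXN, likewise -0.24 ± 0.029 (edgeR adjusted p = 1.37e-09 and 4.65e-10). The paralogue LIN28B, which also blocks let-7, was at 93.0 ± 2.48 CPM under DMSO, 96.2 ± 0.369 CPM under BIX and 90.0 ± 1.94 CPM under VXN.

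PRDM14, a zinc finger repressor of differentiation genes, stood at 39.7 and 37.4 CPM under DMSO, 38.3 and 37.5 CPM under BIX, and 24.6 and 29.7 CPM under VXN. The 2 VXN libraries lay below the 4 others and differed from each other more than the pairs of the other groups did. Under VXN it fell by 29.4%, a log2 fold change of -0.50 ± 0.070 (edgeR adjusted p = 3.16e-08). Under BIX the change was -0.02 with a 95% interval of -0.16 to 0.11, and it was not called.

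VRTN (chromosome 14, 74302993 to 74360008) fell from 229 and 243 CPM under DMSO to 180.5 and 184 CPM under VXN, a log2 fold change of -0.38 ± 0.037 (edgeR adjusted p = 3.88e-13). Under BIX it was at 227 and 214 CPM, below both controls by a small margin. That change of -0.10 ± 0.037 on the log2 scale was called (edgeR adjusted p = 0.0344), but not with DESeq2 (0.245), nor when t-hESC DMSO replicate 2 (0.361) or t-hESC BIX replicate 2 (0.326) was left out.

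SALL4 (chromosome 20, 51782331 to 51802521) stood at 146 and 145 CPM under DMSO, 165 and 159 CPM under BIX, and 131 and 140.4 CPM under VXN, without overlap. The rise under BIX was 0.16 ± 0.040 on the log2 scale (edgeR adjusted p = 0.00165). Under VXN the change was -0.10 ± 0.040, just outside the threshold (edgeR adjusted p = 0.0503), and its call turned on small changes of the fit. It passed with upper-quartile factors (0.0121), with a minimum count of 50 (0.0496), and without t-hESC BIX replicate 1 (0.0376) or 2 (0.0251), at log2 fold changes of -0.12 to -0.10. Over the fits that each left out 1 library the change ran from -0.15 to -0.05, with -0.15 without t-hESC VXN replicate 2. DESeq2 did not call it, and neither did the authors' deposited table (adjusted p = 0.652).

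DPPA4 (chromosome 3, 109326144 to 109339636) rose under BIX from 808 and 791 CPM to 869 and 882 CPM, by 0.13 ± 0.030 on the log2 scale (edgeR adjusted p = 0.000539). Under VXN it was at 805 and 812 CPM, overlapping the controls, with a log2 fold change of 0.02 and a 95% interval of -0.04 to 0.08. USP44, the ubiquitin protease (chromosome 12, 95516560 to 95551681), was the 1 factor of the 9 with no call among the t-hESC groups. It stood at 201 and 206 CPM under DMSO, 197 and 192 CPM under BIX, and 206 and 203 CPM under VXN, with log2 fold changes of -0.07 (95% interval -0.14 to 0.0085) and 0.0054 (95% interval -0.07 to 0.08).

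The BIX calls leaned on 1 control library. Without t-hESC DMSO replicate 2, the number called fell from 6 to 2, LIN28A and SALL4, and the adjusted p of edgeR's test became 0.0956 for SOX2, 0.0751 for NANOG and 0.0522 for DPPA4, with the directions kept. The authors' deposited table calls 0 of the 9 factors under BIX, with 1 at an unadjusted p under 0.05 (LIN28A, adjusted p = 0.0754), whereas DESeq2 as run here on the same counts called 5. For VXN in t-hESC the authors' deposited table calls NANOG higher and SOX2, LIN28A, PRDM14 and VRTN lower.

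**Figure D2:**
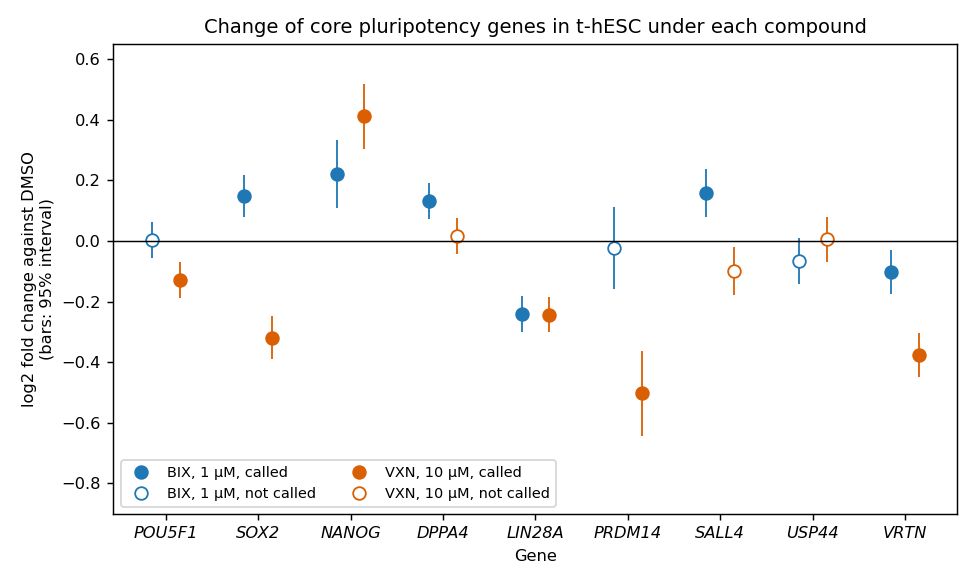
Log2 fold change of each factor against DMSO in t-hESC (vertical axis) by gene (horizontal axis), for BIX at 1 µM in blue and VXN at 10 µM in orange, with bars for the 95% interval and filled points for called changes. SOX2 lies above 0 under BIX and below 0 under VXN, and LIN28A lies at -0.24 under both.

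VXN and BIX were also compared directly, where dose and compound cannot be told apart because VXN was used at 10 µM and BIX at 1 µM. Of the 9 factors, 6 were lower under VXN, 1 was higher (NANOG) and 2 did not pass (LIN28A and USP44). The background was 22.7% of all genes (11.6% higher and 11.2% lower) and 43.6% of those of like abundance (20.3% higher and 23.3% lower). PRDM14 and SOX2 were the furthest apart, by log2 differences of -0.48 ± 0.074 and -0.47 ± 0.036 (edgeR adjusted p = 6.14e-07 and 4.28e-17). VRTN, SALL4, POU5F1 and DPPA4 followed with -0.27, -0.26, -0.13 and -0.11. NANOG was 0.19 ± 0.055 higher under VXN (edgeR adjusted p = 0.00713), a call that was lost without t-hESC BIX replicate 1 (0.0932), with the trend on gene length removed (0.0612) and with DESeq2 (0.128). For LIN28A the difference was -0.0029 with a 95% interval of -0.06 to 0.06.

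Among 27 further network transcription factors and chromatin partners, 25 were tested. Under BIX 9 were higher, 6 lower and 10 not called, with a median log2 fold change of 0.08. OTX2, a homeodomain factor of the primed state and of the anterior neural plate, fell by 0.52 ± 0.057 (edgeR adjusted p = 4.02e-11), and ESRRB, an orphan nuclear receptor tied to the naive state, rose by 1.17 ± 0.15 from 4.67 to 10.5 CPM (edgeR adjusted p = 3.48e-09). ZNF462 and SMAD3, the latter a mediator of activin and nodal signals, each rose by 0.50. Under VXN 8 were higher, 4 lower and 13 not called, with a median of 0.08. OTX2, MYCN and TRIM28, the corepressor of KRAB zinc finger proteins, fell by 0.38, 0.37 and 0.19, and UTF1, a chromatin protein of undifferentiated cells, rose by 0.43. Beside the counts of this list and those below, 23.1% of all tested genes were called under BIX and 29% under VXN. Among the 6135 abundant genes the shares were 51% and 55.3%. The lists were not matched to them by abundance, so the counts are given as description only.

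Of 21 markers of undifferentiated cells, 20 were tested, and under BIX 10 were higher, 4 lower and 6 not called, with a median of 0.10. The non-coding gene ESRG rose by 0.53 ± 0.038 from 152 to 220.0 CPM (edgeR adjusted p = 3.36e-18). LEFTY1, an inhibitor of nodal, rose by 1.20 from 2.51 to 5.77 CPM, and TRIM71 and FGF2 rose by 0.32 and 0.31. Under VXN 5 were higher, 6 lower and 9 not called, with a median of -0.07. TDGF1, the nodal co-receptor, fell by 0.66 ± 0.036 from 273 to 172 CPM (edgeR adjusted p = 2.60e-24). DNMT3B, a de novo DNA methyltransferase, and TERF1, a telomere protein, fell by 0.45 and 0.47, and SFRP2, a secreted WNT modulator, rose by 0.32.

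The LIN28 and let-7 pathway was followed as 18 genes: LIN28B, the uridylyltransferases that tail the let-7 precursor, the processing enzymes and known let-7 targets. Under BIX 7 were higher, 2 lower and 9 not called, with a median of 0.07. TRIM71, IGF2BP1 and the processing enzyme DICER1 rose by 0.32, 0.23 and 0.32, and MYCN fell by 0.33. Under VXN 3 were higher, 6 lower and 9 not called, with a median of -0.06. The uridylyltransferase TUT7 rose by 0.53, TRIM71 rose by 0.24, and IGF2BP3 and MYCN fell by 0.24 and 0.37. TRIM71 and MYCN each stand on a further list above.

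**Figure D3:**
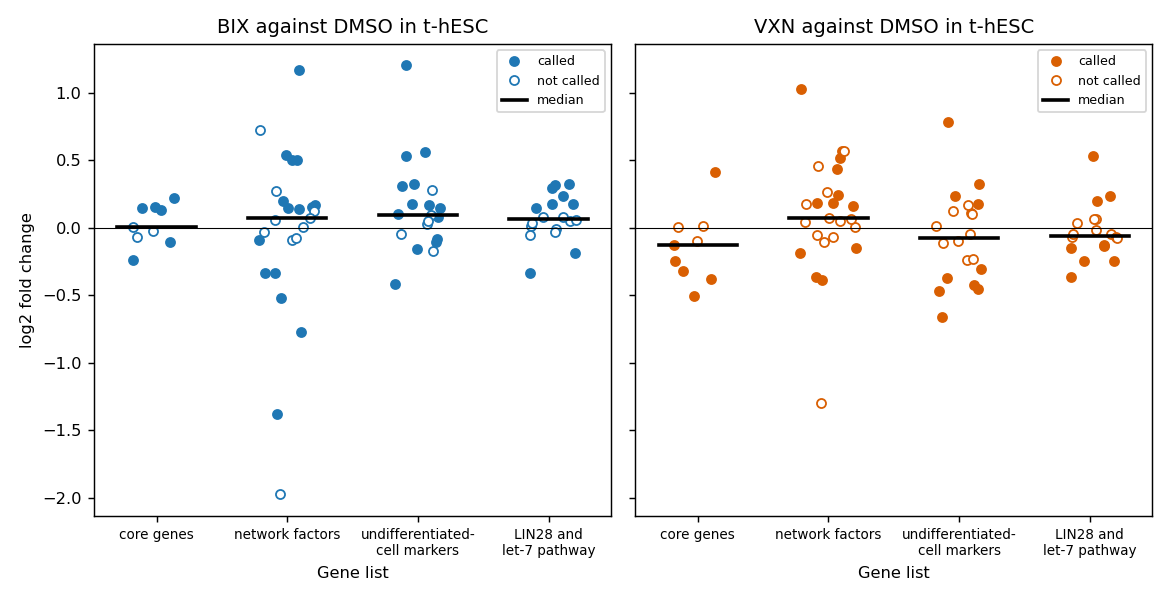
Log2 fold change against DMSO in t-hESC (vertical axis) of each tested gene of 4 groups (horizontal axis: the 9 core factors, network factors, undifferentiated-cell markers, and the LIN28 and let-7 pathway), for BIX on the left and VXN on the right, with filled points called and black bars for medians. Points lie on both sides of 0 in every group under both compounds, and all medians lie between -0.13 and 0.10.

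Markers of differentiated lineages moved in both directions. Of 14 tested neuroectoderm markers, 1 rose and 2 fell under BIX, and 3 rose and 3 fell under VXN, with TUBB3, a neuronal tubulin, lower by 0.33 and 0.35. Of 11 tested mesoderm and endoderm markers, 2 rose under BIX and 3 under VXN, and none fell. Their summed level went from 101 and 108 CPM under DMSO to 156 and 165 CPM under BIX and to 157 and 166 CPM under VXN. KDR, the VEGF receptor, carried most of that sum, at 95.1 ± 4.04 CPM under DMSO, 151 ± 5.94 CPM under BIX and 149 ± 6.08 CPM under VXN (log2 fold changes 0.66 and 0.65; edgeR adjusted p = 2.33e-19 and 6.78e-20), while the endoderm factor SOX17 had 0 counts in all 10 libraries. Of 8 tested trophectoderm and amnion markers, 1 was called under BIX and 2 under VXN, at a summed level of at most 10.3 CPM.

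Markers of fibroblasts, another cell type that such cultures can hold, had a summed level of 1230 and 1235 CPM under DMSO, 1388 and 1428 CPM under BIX, and 1457 and 1464 CPM under VXN. Of 7 tested, 4 rose under BIX, and 1 rose and 3 fell under VXN. THY1 and VIM made up most of the sum, and both are also expressed by pluripotent stem cells. The stromal markers DCN, LUM and COL3A1 had mean levels of at most 0.0631, 0.0367 and 0.425 CPM in the t-hESC groups, and FAP had 0 counts there. Of 11 tested colorectal markers, 1 rose and 1 fell in t-hESC under BIX, and 1 fell under VXN. The part of any of these markers in the changes of the 9 factors was not tested.

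Other members of the factors' own gene families were counted as well. Of 26 tested paralogues, 6 rose and 1 fell under BIX, with a median of 0.13, and 10 rose and 3 fell under VXN, with a median of 0.16. SOX9 rose by 1.31 ± 0.072 under VXN, from 14.8 to 36.8 CPM (edgeR adjusted p = 7.44e-24), and SOX4, SOX11 and SALL1 rose by 0.46, 0.25 and 0.53, in the libraries in which SOX2 fell. Under BIX SALL3, SALL1, POU2F1 and SOX4 rose by 0.66, 0.43, 0.55 and 0.28. Paralogues share sequence with the factors, and the sources used here do not give how reads that fit several genes were counted.

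For each factor, the genes whose pattern over the 6 t-hESC libraries was most like it were sought among 1964 genes with at least 4 CPM there and at least 8-fold higher in t-hESC than in HT29. Pearson's r of log2 CPM is given as a description only, since the 6 points are 3 pairs of replicates in shared libraries and 1964 genes were searched. For NANOG these were PNMA8A and JAKMIP2 (r = 0.998 and 0.994), and for SOX2 they were CAPN6 and PFKFB4 (0.997 and 0.995). POU5F1 was nearest to EPHX2 and CKMT1A (0.993 and 0.991), DPPA4 to CCDC88A and EDIL3 (0.999 and 0.990), and SALL4 to RASSF4 and ZNF618 (0.996 and 0.992). PRDM14 was nearest to AMPH and LRRC2 (0.991 and 0.988), VRTN to LARGE2 and TENT5B (0.993 and 0.993), and USP44 to ZNF75A and FOXD3-AS1 (0.981 and 0.967). A high r does not mean a change of like size. Under VXN the log2 fold change was -0.07 for AMPH and -0.73 for LRRC2, against -0.50 for PRDM14. For LIN28A the nearest gene with a symbol was CHN1 (0.984), after one listed by identifier only.

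In HT29 all 9 factors were far below their t-hESC level. Under DMSO, POU5F1 stood at 0.103%, SOX2 at 0.0533%, NANOG at 0.0805%, DPPA4 at 0.0131%, LIN28A at 0.00199% and USP44 at 0.0309% of the t-hESC level by their summed counts. PRDM14 had 0 counts in both HT29 DMSO libraries, at least 612-fold lower than in t-hESC when the group is set at 3 counts in all. SALL4 and VRTN were the least depleted, at 0.938% (95% interval 0.723 to 1.20) and 1.36% (1.15 to 1.59) of the t-hESC level, by exact conditional intervals that cover counting error only. All 9 were called lower under DMSO and again under VXN. Under DMSO 84.4% of all genes were called, 38.9% higher and 45.6% lower in HT29. Under VXN 86.4% were called, 40.9% higher and 45.5% lower. The factors passed the count filter through t-hESC, so nothing is read from the number of them called between the lines.

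VXN in HT29 was followed by more reads of DPPA4, LIN28A, SALL4 and USP44 and by fewer reads of VRTN, and 4 factors did not pass (POU5F1, SOX2, NANOG and PRDM14). The 5 calls among 9 compare with 60% of all genes called in this comparison, 33% higher and 26.9% lower. The median log2 fold change was 1.20 over the 9 and 0.055 over all genes. Apart from POU5F1, SALL4 and VRTN, each factor had 20 reads or fewer in each HT29 library and passed the count filter only through t-hESC. The calls of DPPA4, LIN28A and USP44, and the median over the 9, are therefore not read as a response of HT29. With only the HT29 libraries fitted, SALL4 and VRTN alone were called. Without HT29 VXN replicate 2, 3 of the 9 were called.

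Markers of other cell types moved in the same HT29 comparison. Of 7 tested fibroblast markers 5 rose and none fell, with a median log2 fold change of 1.09. Their summed level was low, and went from 5.85 and 4.53 CPM under DMSO to 12.4 and 10.2 CPM under VXN. Under DMSO 6 of the 7 were called lower in HT29 than in t-hESC. With only the HT29 libraries fitted, 3 fibroblast markers were called, against 5. COL1A2, a collagen chain, rose by 3.67 from 2 to 3 reads per library to 15 to 45, and VIM, an intermediate filament protein, rose by 1.09 from 1.15 to 2.46 CPM, while DCN had 0 reads under VXN. Of 11 tested colorectal markers 2 rose and 6 fell, with a median of -0.23. KRT20, a keratin of differentiated gut epithelium, rose from 249.6 to 704 CPM (edgeR adjusted p = 3.96e-47) and CEACAM5 rose by 3.12 from 5.54 to 48.1 CPM, and the summed level went from 1785 and 1763 CPM to 2035 and 2025 CPM. MUC13 and VIL1, a mucin and an actin-bundling protein of the gut surface, fell by 1.15 and 0.94. Of the tested neuroectoderm markers 2 rose and 2 fell of 14, of mesoderm and endoderm markers 2 rose and 3 fell of 11, and of trophectoderm and amnion markers 2 rose and 3 fell of 8. The part of any of these markers in the HT29 changes of the 9 factors was not tested.

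SALL4 went from 31 and 34 reads under DMSO to 73 and 61 reads under VXN, or from 1.28 and 1.45 CPM to 3.19 and 3.09 CPM. The groups did not overlap, and the log2 fold change was 1.20 ± 0.21 (edgeR adjusted p = 8.16e-07). VRTN went the other way, from 84 and 69 reads to 9 and 8 reads, or from 3.46 and 2.95 CPM to 0.394 and 0.406 CPM. It fell by 2.99 ± 0.29 on the log2 scale, 7.93-fold (edgeR adjusted p = 1.92e-14). These 2 changes kept their call in every alternative run, including the leave-one-out fits.

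DPPA4 had 2 and 3 reads under DMSO and 8 and 20 under VXN, a log2 fold change of 2.58 ± 0.58 (edgeR adjusted p = 8.25e-05) that was not called without HT29 VXN replicate 2 (1.67, edgeR adjusted p = 0.0592). Like DPPA4 and USP44, LIN28A passed the count filter only through t-hESC. It had 1 and 0 reads under DMSO and 8 and 17 under VXN. The ratio of its summed levels was 28.0 with a counting interval of 4.58 to 1149, and edgeR's adjusted p was 1.82e-06. USP44 had 0 and 3 reads under DMSO and 4 and 7 under VXN, a ratio of 4.11 with a counting interval of 1.08 to 22.9 (edgeR adjusted p = 0.0334). Its call was lost without HT29 VXN replicate 2 (0.268), without HT29 DMSO replicate 1 (0.354) and with DESeq2 (0.0663).

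POU5F1 had 49 and 34 reads under DMSO and 33 and 46 under VXN, overlapping, with a log2 fold change of 0.09 and a 95% interval of -0.37 to 0.55. Its copy POU5F1B held 21.2 to 41.2% as many reads as POU5F1 in the HT29 libraries, against 1.13 to 1.39% in t-hESC, so the HT29 level of POU5F1 is uncertain. SOX2 had 2 and 5 reads under DMSO and 5 in each VXN library. NANOG had 1 read in each DMSO library and 0 and 2 under VXN, and PRDM14 had 0 reads under DMSO and 1 in each VXN library. None of these 3 was called. The 95% intervals of their log2 fold changes were -0.71 to 2.02 for SOX2, -2.32 to 2.60 for NANOG and -0.52 to 6.62 for PRDM14. Changes within those intervals could not be decided at this depth.

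**Figure D4:**
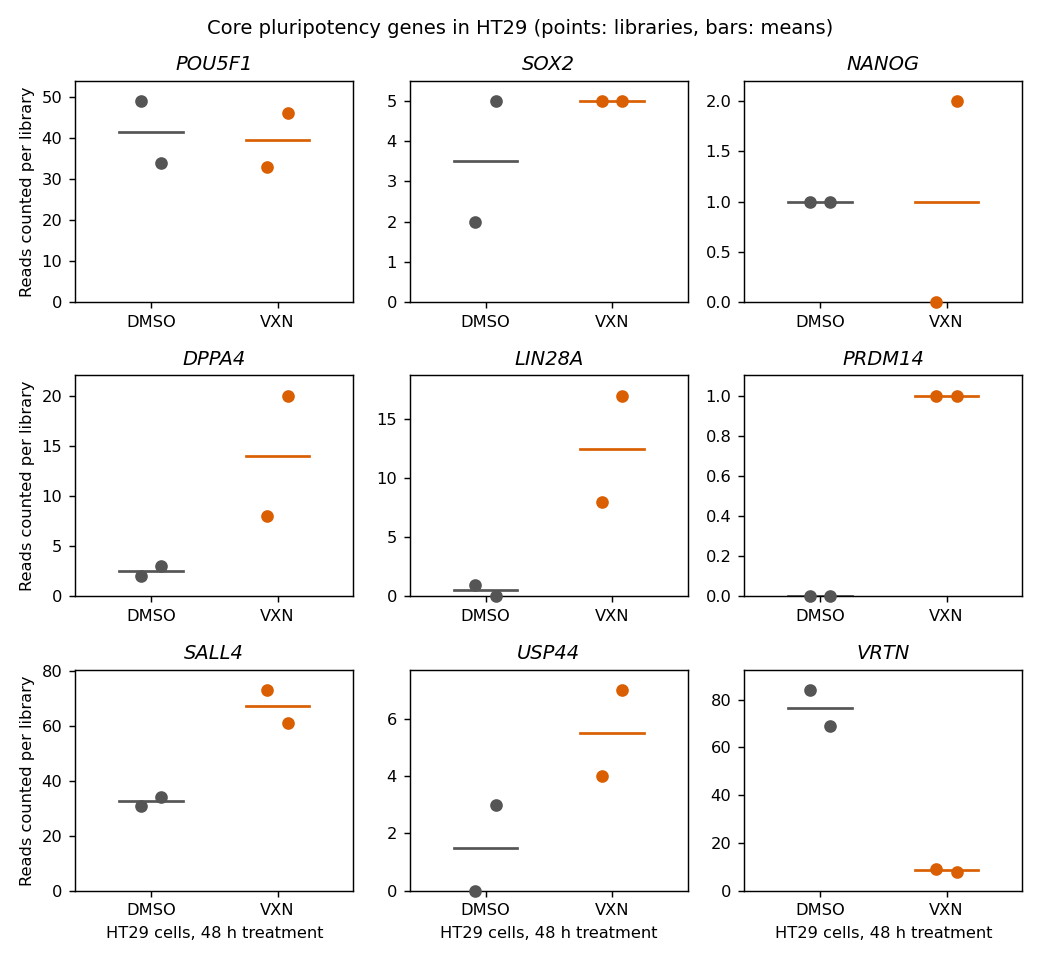
Reads counted per HT29 library (vertical axes, from 0, scaled per gene) under DMSO and VXN (horizontal axes), with points for libraries and bars for the mean of 2. SALL4 rises from 31 and 34 to 73 and 61 reads and VRTN falls from 84 and 69 to 9 and 8, while the other called genes have 20 reads or fewer per library.

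Other genes that only t-hESC expressed at a high level also had more reads in HT29 under VXN. There were 142 genes, other than the 9, with at least 50 CPM in t-hESC under VXN and at most 3 reads in HT29 under DMSO, a choice made after the values were seen and one that favours a rise. In HT29 under VXN their median level was 0.0979% of the t-hESC VXN level (quartiles 0.0598 and 0.165%), with 0.0622% in replicate 1 and 0.144% in replicate 2. Under DMSO the matching median was 0.0158%. The HT29 VXN levels of LIN28A, DPPA4 and USP44, at 0.0681%, 0.0843% and 0.130% of t-hESC VXN, lay between those quartiles, as did those of POU5F1, SOX2 and NANOG at 0.122%, 0.107% and 0.0731%. SALL4 lay far above them at 2.32%, and VRTN and PRDM14 lay somewhat above at 0.219% and 0.174%. By summed counts, the counting intervals were 0.128 to 0.351% for VRTN and 0.0209 to 0.625% for PRDM14, and both take in the upper quartile. PRDM14 and NANOG each rested on 2 HT29 VXN reads in all, with an interval of 0.0082 to 0.245% for NANOG. Their places against the quartiles are therefore uncertain. For LIN28A and DPPA4, replicate 2 was also the higher library, at 0.0969% against 0.0393% and at 0.125% against 0.0433%. Whether reads of t-hESC origin had a part in these levels was not tested.

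**Figure D5:**
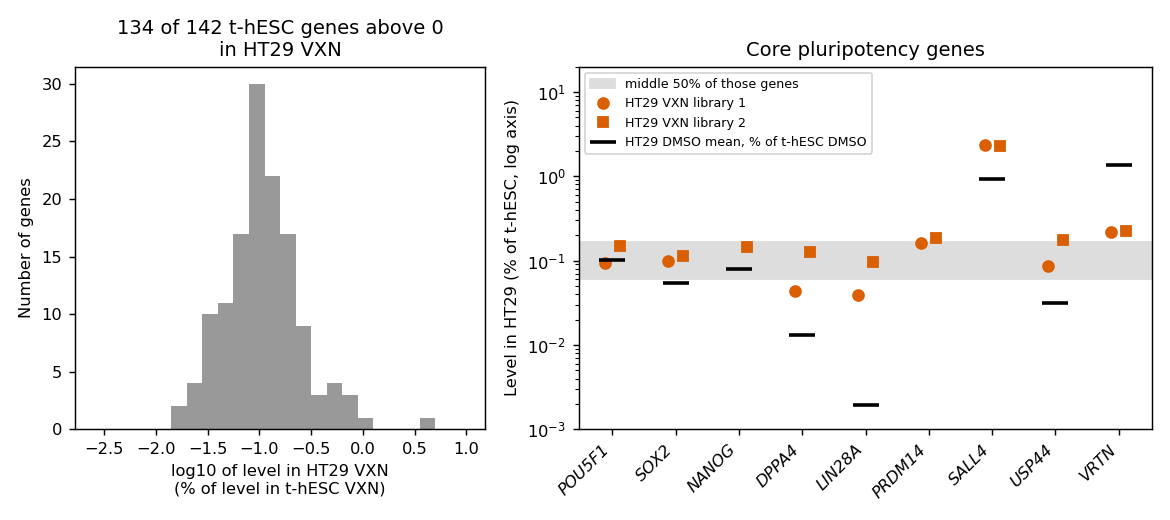
Left, histogram of the HT29 VXN level of 142 t-hESC genes as a percentage of their t-hESC VXN level (log10 axis, genes above 0 only). Right, the same percentage for the 9 factors by library (log axis, points at 0 not drawn) beside their HT29 DMSO level (bars) and the quartile range of the 142 genes (grey band). SALL4 lies above the band at 2.32%, while LIN28A, DPPA4 and USP44 have means inside it.

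The VXN effect in HT29 was also set against that in t-hESC by a test of the difference, which 5 of the 9 factors passed: DPPA4, LIN28A, SALL4 and USP44 with a more positive effect in HT29 and VRTN with a more negative one. DPPA4, LIN28A and USP44 passed the count filter only through t-hESC, so their differences rest on few HT29 reads. Of all genes 43.2% passed, 22.9% more positive and 20.3% more negative in HT29. The difference for SALL4 was 1.30 ± 0.21 on the log2 scale (edgeR adjusted p = 3.84e-07).

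For the other genes of the network in HT29 under VXN, 9 were higher, 4 lower and 12 not called of 25. Of all tested genes 60% were called in this comparison, 33% higher and 26.9% lower. KLF4, a reprogramming factor that is also active in differentiated gut epithelium, rose by 2.53 ± 0.060 from 16.6 to 96.1 CPM (edgeR adjusted p = 2.48e-45). SMAD3 and FOXH1, which pass on nodal signals, rose by 0.96 and 1.33, and KLF5 fell by 0.59. Of 20 undifferentiated-cell markers 6 were higher, 6 lower and 8 not called. TDGF1 rose by 1.39 from 2.14 to 5.64 CPM, and DNMT3B and TERF1 fell by 0.89 and 0.85. Of 18 LIN28 and let-7 pathway genes 8 were higher, 5 lower and 5 not called. HMGA1 rose by 0.63, and the microRNA processing enzyme DROSHA fell by 0.77. SOX9 and SOX4 fell by 0.62 and 1.28 among the paralogues, of which 10 were higher, 5 lower and 11 not called.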

How the data were processed

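RNA of 10 libraries was sequenced from unstranded TruSeq RNA v2 libraries, per the labels' protocols. Per the submitters' processing notes, fastp 0.20.1, FastQC 0.11.9, STAR and DESeq2 1.34.0 were used, with GRCh38. The sources used here give neither the counting program nor its annotation (not stated). The authors deposited raw counts per gene, with 1181 repeat families that were left out, and 4 tables of comparisons. Each of those holds a mean signal, a log2 fold change and p-values as deposited by the authors. Another 4 columns of counts could be tied to no sample, and they were left out. CPM were computed here.

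Counts were fitted in edgeR 4.0.16 (R 4.3.3): TMM, filterByExpr with a minimum count of 10, and a robust quasi-likelihood F test over all 10 libraries (5 residual and a median of 56.7 prior degrees of freedom), adjusted by Benjamini-Hochberg over 22495 genes. Leave-one-out fits pool the spread, so a lone library is assumed to vary like the others. On simulated counts for 22495 genes, the BIX comparison recovered 16, 64, 100 and 100% of 50 genes each changed by 1.1, 1.2, 1.5 and 2-fold, with 8.50% of calls false. For VXN in t-hESC these were 32, 64, 100 and 100%, with 7.5% false, and for VXN in HT29 they were 22, 64, 100 and 100%, with 8.33% false. Counts were drawn with edgeR's own estimate of the spread, and changed genes only from those with high mean counts. No factor had more than 84 reads in an HT29 library, which is below those counts, so the shares recovered do not apply to the factors in HT29.

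The 9 factors and the 9 gene lists (151 genes) were chosen with earlier results of these data known. Named genes are the factors, up to 4 called genes per list with the smallest p, copies and overlapping genes, and the 2 most alike genes; further genes were named after their values were seen. Promoters and microRNAs come from RefSeq tables (GRCh38.p14).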

Additional observations from a re-analysis of the deposited data

Results flagged for a closer look

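The measured VXN effect differed between the lines for 5 of the 9 factors by a test of the difference itself, the effect in HT29 minus that in t-hESC. For LIN28A, DPPA4 and USP44 the HT29 VXN level lay within the quartiles of the 142 t-hESC genes (0.0598 to 0.165% of the t-hESC level), and whether reads of t-hESC origin had a part in it was not tested. These 3 genes passed the count filter only through t-hESC and had 20 reads or fewer in each HT29 library. Their differences are therefore not read as a response of HT29. Of all tested genes 43.2% passed the test of the difference. The difference was 4.68 on the log2 scale for LIN28A (edgeR adjusted p = 8.07e-07), which fell in t-hESC and rose from 1 read in all to 25 in HT29. It was 2.56 for DPPA4 (edgeR adjusted p = 1.58e-04), 1.30 for SALL4 (edgeR adjusted p = 3.84e-07) and 1.93 for USP44 (edgeR adjusted p = 0.0463). For VRTN it was -2.61 (edgeR adjusted p = 1.98e-11): VRTN fell in both lines, by 0.38 in t-hESC and by 2.99 in HT29 on the log2 scale. The difference for DPPA4 was not called without HT29 VXN replicate 2 (1.66, edgeR adjusted p = 0.0797). That for USP44 was lost in 5 of the 10 leave-one-out fits, with adjusted p up to 0.412.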

How the results depend on the processing

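Over all alternatives in which the factor was tested, 863 of 890 refits of called changes and line differences of single factors kept their direction and call. Of the rest 27 lost the call and none changed direction. The 890 include HT29 against t-hESC, where differences of 43.0-fold or more left little room to lose a call. They leave out DPPA4, LIN28A and USP44 in the fit of only the HT29 libraries, where these did not pass the count filter. The number of factors called under BIX was 2 to 6 over the leave-one-out fits, with 2 without t-hESC DMSO replicate 2. For VXN in HT29 it was 3 to 5, and 3 to 5 for the difference of the VXN effects, the lowest in both without HT29 VXN replicate 2. Fitting only the HT29 libraries called 2 factors, SALL4 and VRTN, because 3 of the 9 then passed the count filter, and 3 fibroblast markers, against 5.

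Changes that were not called and crossed 0 were those of DPPA4 and USP44 under VXN in t-hESC with upper-quartile factors (-0.0062 and -0.018) and USP44 with no count filter (-0.00057). With no count filter POU5F1 under BIX came to -0.011 and LIN28A, VXN against BIX, to 0.0053. With the trend on gene length removed, PRDM14 under BIX was at 0.017. Leaving out 1 library gave -0.037 to 0.037 for POU5F1 and -0.079 to 0.013 for PRDM14 under BIX. Under VXN in t-hESC it gave -0.0056 to 0.026 for DPPA4 and -0.016 to 0.019 for USP44, and for LIN28A against BIX -0.013 to 0.0093. In HT29 it gave -0.28 to 0.41 for POU5F1 and -2.91 to 1.15 for NANOG, and the differences between lines ran from -0.14 to 0.54 and from -3.32 to 0.74. The cause was not tested.

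Same-numbered replicates did not deviate together (r of -0.032 to 0.026). With the replicate number as a block, the factors called numbered 6 under BIX, 7 under VXN in t-hESC (SALL4 added, edgeR adjusted p = 0.0469) and 4 in HT29 (USP44 lost, 0.0519), and the difference between lines for USP44 was lost (0.0702).

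DESeq2 called 8 network factors and 9 undifferentiated-cell markers under BIX, against 15 and 14 in edgeR, and 7 paralogues under VXN in t-hESC, against 13. It called 1 neuroectoderm and 1 mesoderm or endoderm marker under BIX, against 3 and 2, and 2 fibroblast markers under VXN, against 4. Leaving out 1 library also moved list counts: without t-hESC DMSO replicate 1, 8 undifferentiated-cell markers under BIX and 7 network factors (against 12) under VXN were called. Without t-hESC DMSO replicate 2, 8 paralogues were called under VXN. Without t-hESC BIX replicate 2, 9 undifferentiated-cell markers were called under BIX, and without t-hESC BIX replicate 1, 2 fibroblast markers (against 4). Without t-hESC VXN replicate 2, 1 mesoderm or endoderm marker (against 3) was called under VXN. In HT29 0 to 20 reads per library limit what can be said of SOX2, NANOG, DPPA4, LIN28A, PRDM14 and USP44.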

Other observations

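The host transcripts of 2 microRNA families tied to the factors were examined after their values were seen. MIR302CHG (chromosome 4, 112646720 to 112650051) carries the miR-302 and miR-367 microRNAs, which mark pluripotent cells and whose gene is a known target of POU5F1 and SOX2. MIRLET7A1HG and MIRLET7BHG carry let-7 microRNAs, whose maturation LIN28A blocks. The mature microRNAs are shown, from RefSeq, 5′ to 3′, with the seed (bases 2 to 8) in capitals, because the seed groups them into 3 families: the 4 miR-302 forms, miR-367 and the let-7 forms.
miR-302a-3p: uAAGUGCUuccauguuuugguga
miR-302b-3p: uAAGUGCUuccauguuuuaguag
miR-302c-3p: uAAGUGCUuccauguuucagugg
miR-302d-3p: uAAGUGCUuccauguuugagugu
miR-367-3p: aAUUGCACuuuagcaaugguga
let-7a-5p: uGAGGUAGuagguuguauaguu
let-7b-5p: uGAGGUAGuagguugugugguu
In t-hESC, MIR302CHG stood at 178 CPM in both DMSO libraries, 109 and 111 CPM under BIX, and 142 and 127 CPM under VXN. The groups did not overlap, and it fell by 0.70 ± 0.042 on the log2 scale under BIX and by 0.41 ± 0.040 under VXN (edgeR adjusted p = 2.27e-21 and 5.90e-13). In HT29 it fell from 11.2 and 11.9 CPM to 7.52 and 6.95 CPM under VXN, by 0.67 ± 0.11 (edgeR adjusted p = 1.20e-07). MIR302CHG lies wholly inside LARP7, a gene for an RNA-binding protein, and the libraries do not mark strand. LARP7 fell beside it, by 0.50 under BIX, by 0.31 under VXN in t-hESC and by 0.57 in HT29 (edgeR adjusted p = 2.58e-05, 9.79e-04 and 2.94e-05). LARP7 extends beyond MIR302CHG on both sides (112637143 to 112657586). Reads from the stretch they share cannot be assigned by strand, and the sources used here do not give how they were counted. The part of shared reads in these falls was not tested. Mature microRNAs were not measured.

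MIRLET7A1HG was at 2.86 and 2.64 CPM in t-hESC under DMSO, 3.34 and 4.40 CPM under BIX, and 3.53 and 4.06 CPM under VXN, and was not called (edgeR adjusted p = 0.0663 and 0.0531). In HT29 it rose from 7.58 and 7.30 CPM to 11.2 and 12.3 CPM under VXN, by 0.65 ± 0.11 on the log2 scale (edgeR adjusted p = 6.45e-07). MIRLET7BHG had at most 2 reads in any t-hESC library, and in HT29 it rose from 36 and 38 reads to 56 and 51, by 0.69 ± 0.23 (edgeR adjusted p = 0.00832).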
